A study of Mus musculus with 10 samples.

Results

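The subject is a group of 9 receptors that steer T cells within and out of lymph nodes: the chemokine receptors Cxcr3, Cxcr4, Cxcr5, Cxcr6 and Cx3cr1, the sphingosine-1-phosphate (S1P) receptors S1pr1 and S1pr4, the oxysterol receptor Gpr183 and the gut-homing receptor Gpr15. They were chosen by name, as genes that 1 array probe set names alone, out of 30106 genes measured in that way, and every one of them had exactly 1 such probe set. Their RNA was measured in CD4+ T cells of lymph nodes, taken from unmanipulated C57BL/6 female mice aged 6 to 8 weeks and sorted at about 50000 cells per array. All mice, WT and mutant alike, were homozygous for a Foxp3 reporter (Foxp3-RFP) that makes regulatory T (Treg) cells red, and the sort separated RFP+ Treg cells from RFP-negative conventional T (Tconv) cells. Il2ramut/mut mice carry a point mutation in CD25, the high affinity chain of the IL-2 receptor, which arose in a Ccr2-deficient stock and was bred away from the Ccr2 allele by crossing to B6 mice. The 4 groups were WT Treg (n = 3), Il2ramut/mut Treg (n = 3), WT Tconv (n = 2) and Il2ramut/mut Tconv (n = 2) cells. The methods of the study describe the Tconv sort as naive cells, CD62L high, CD44 low and CD25 negative, whereas Treg cells were taken by the reporter alone, so a difference between the cell types is also a difference between a naive gate and none.

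Most of the 9 proteins are receptors coupled to inhibitory G proteins, and the direction a T cell takes depends on which of them it displays. CXCR4 follows CXCL12 made by stroma, CXCR5 follows CXCL13 into B cell follicles, CXCR3 follows interferon-induced CXCL9 and CXCL10 into inflamed tissue, CXCR6 binds CXCL16 and CX3CR1 binds CX3CL1. S1PR1 senses the S1P of lymph and blood and is needed for T cells to leave lymph nodes, and GPR183 senses oxysterols and places cells at the border of the T cell zone and the follicle.

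Signals are given on the log2 scale, on which a difference of 1 is a doubling. An array was said to detect a gene when its signal exceeded the 95th percentile of 23 control probe sets with no mouse target, a level of 4.98 to 5.54. Between 40.3% and 51.3% of transcript probe sets were above it. The Treg markers Il2ra, Ikzf2, Ctla4 and Tnfrsf18 (4 of 4 measured) were higher in Treg than in Tconv arrays of both genotypes, and Cd3e, Cd3g, Cd4 and Cd28 were detected on all 10 arrays. Of 7 B cell genes measured, Cd79a, Ms4a1, Ebf1 and Pax5 were at background on every array. Cd79b and Cd22 were called higher in Treg than in Tconv arrays of both genotypes (by 1.43 and 1.54 in WT). Cd8a was at background on every array, but Cd8b1 (means of 9.37 to 10.39) was not. Nothing in the labels says whether a Treg and a Tconv array of the same number came from 1 mouse.

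Promoter sequence differed widely within the group. RefSeq (GRCm38.p6) gave a promoter for 7 of the 9 genes, and the 250 bases before the transcription start are printed, 5′ to 3′, for Cxcr4, the receptor with the widest gap between genotypes, and for Gpr15 and Cxcr3, a pair of receptors higher in Treg cells of either genotype. Capitals mark matches, on either strand, to any of 9 motifs: the TATA box searched as TATAAA, the GC box searched as CCGCCC, the NRF1 palindrome made of GCGCA joined to its own reverse complement, the AP-1 motif read as TGANTCA, the STAT motif read as TTCNNNGAA, the FOXO motif read as TGTTTAC, the KLF motif read as CACACCC, the RUNX motif read as TGTGGT and the T-box motif read as TCACACCT.
Cxcr4, chr1:128592300-128592549, minus strand: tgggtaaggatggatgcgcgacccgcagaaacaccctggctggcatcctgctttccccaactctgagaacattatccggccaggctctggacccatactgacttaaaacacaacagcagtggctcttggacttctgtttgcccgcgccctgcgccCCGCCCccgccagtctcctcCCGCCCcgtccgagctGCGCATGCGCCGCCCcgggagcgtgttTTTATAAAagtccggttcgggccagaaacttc
Gpr15, chr16:58718873-58719122, minus strand: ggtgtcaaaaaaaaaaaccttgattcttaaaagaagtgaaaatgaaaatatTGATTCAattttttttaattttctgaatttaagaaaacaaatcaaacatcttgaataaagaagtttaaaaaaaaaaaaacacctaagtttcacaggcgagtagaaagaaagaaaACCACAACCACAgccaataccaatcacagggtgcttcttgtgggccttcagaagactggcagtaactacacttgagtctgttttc
Cxcr3, chrX:101734148-101734397, minus strand: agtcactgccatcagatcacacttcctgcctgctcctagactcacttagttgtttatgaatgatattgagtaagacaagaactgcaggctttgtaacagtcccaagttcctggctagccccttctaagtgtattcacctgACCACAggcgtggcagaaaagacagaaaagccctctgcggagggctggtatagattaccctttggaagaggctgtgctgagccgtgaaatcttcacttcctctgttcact
The Cxcr4 window is rich in G and C (61.2%, with 19 CpG pairs, against medians of 52.4% and 6 over the 32851 windows in the table). It holds a TATA box with its first base at -30, overlapped by a reverse match from -32, GC boxes at -95, -75 and -50, and 1 NRF1 match at -59 that shares its last base with the GC box at -50. The NRF1 letters occur in 0.782% of all windows of that length, the GC box in 32.7% and the TATA box in 12.4%. The Gpr15 window is poor in G and C (31.6%, with 1 CpG) and has 1 AP-1 match at -199 (found in 6.75% of windows) and a tandem pair of RUNX matches at -85 and -79 (14% of windows have at least 1). Cxcr3 has a RUNX match at -110, and Cxcr6 and Cx3cr1 have 1 each. Neither S1pr4 nor Gpr183 had any of the 9 motifs. These are letter matches and say nothing of binding.

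To ask how Treg and naive Tconv cells differ in these receptors, Treg arrays were compared with Tconv arrays within each genotype. In WT mice limma called 6 of the 9 receptors (adjusted p under 0.05), 5 higher in Treg cells (Cxcr3, Cxcr4, Cxcr5, Cxcr6 and Gpr15) and 1 lower (S1pr1), where 7.89% of all 65956 probe sets were called (4.37% higher and 3.52% lower). In Il2ramut/mut mice it called 6 of 9 as well, 4 higher (Cxcr3, Cxcr5, Cxcr6 and Gpr15) and 2 lower (S1pr1 and Gpr183), against 11.3% of all probe sets (5.43% higher and 5.91% lower). Many probe sets were at background, and the share was larger among the 31437 detected on every array of at least 1 group. Fitted alone, 5668 of these were called in WT and 7642 in Il2ramut/mut mice, with 6 of the 9 receptors in each. The median difference over the 9 receptors was 0.92 in WT and 0.15 in Il2ramut/mut mice, beside -0.08 and -0.08 over all probe sets. S1pr1, called lower in both, is the receptor through which T cells exit the node, and Cxcr3, Cxcr5, Cxcr6 and Gpr15 were higher in Treg cells of both genotypes. With the methods' t-test after adjustment 1 call was left in each genotype, Cxcr5 in WT (0.981% of all probe sets) and Gpr15 in Il2ramut/mut mice (1.5%). The p-values measure the spread between arrays, of which there were 2 or 3 a group. Bulk signals cannot tell fewer expressing cells from less RNA per cell.

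**Figure D1:**
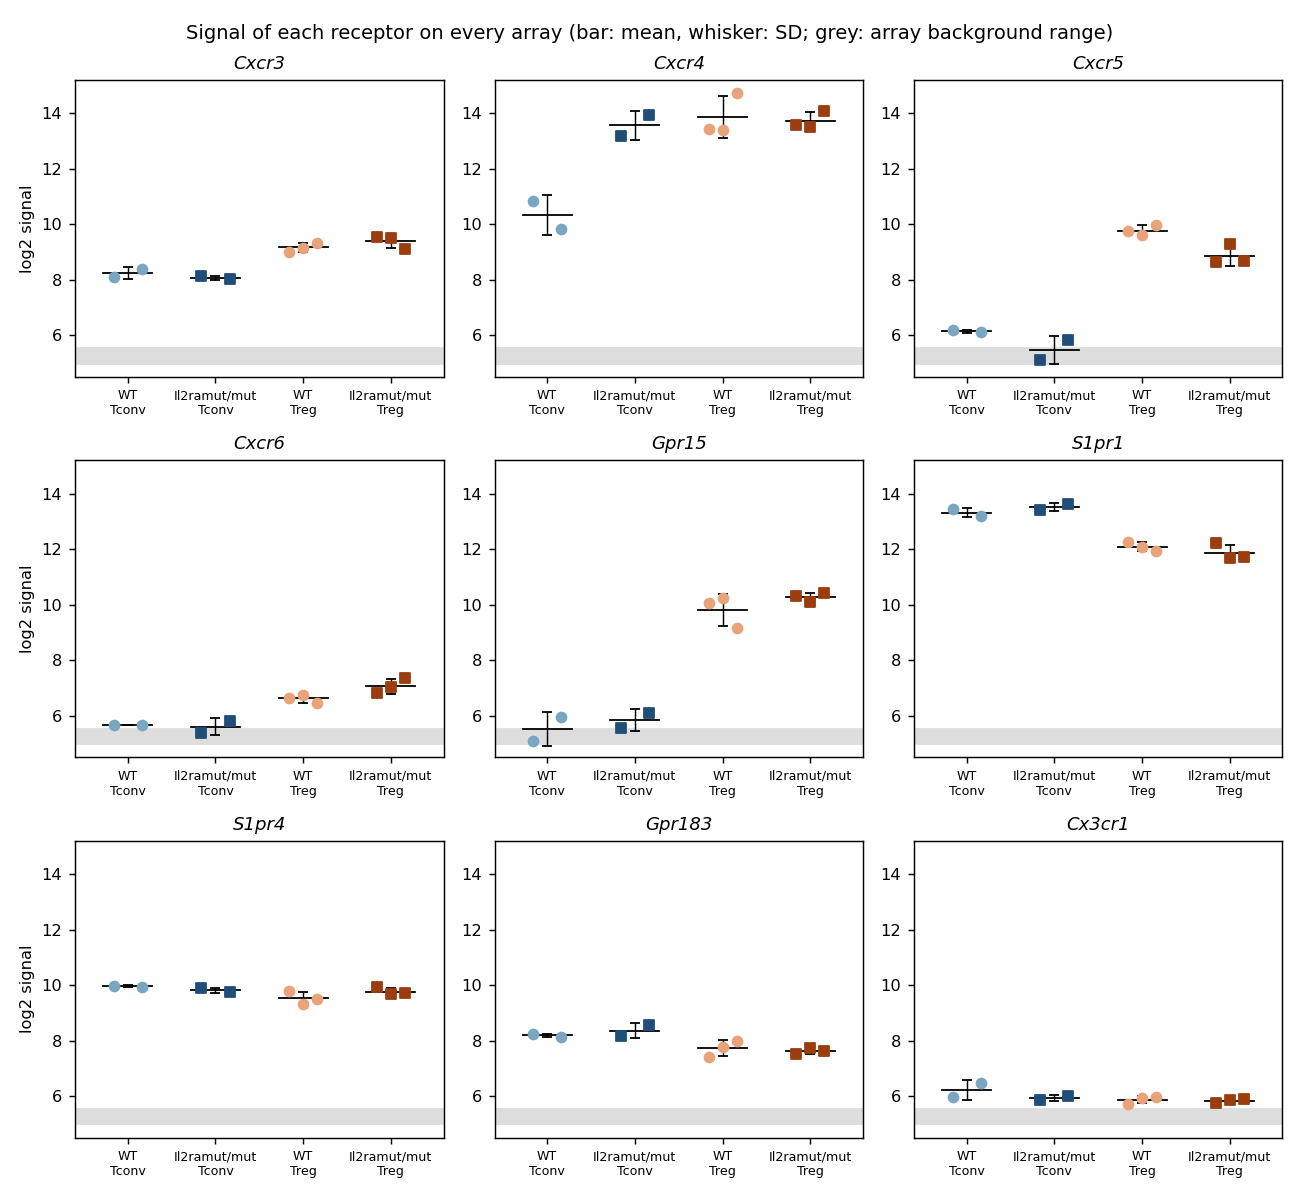
Log2 signal (y axis) of each of the 9 receptors on every array, by group (x axis), with the mean as a bar, the SD as a whisker and the range of array background levels in grey. Cxcr5 and Gpr15 lie between 8.62 and 10.40 on Treg arrays and between 5.08 and 6.18 on Tconv arrays, S1pr1 is above 13.1 on all 4 Tconv arrays and at most 12.25 on Treg arrays, and Cxcr4 is low only in WT Tconv cells (9.82 and 10.85).

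Gpr15 showed the widest separation between the cell types. It encodes a receptor that directs T cells, Treg cells among them, to the large intestine. Its signal was 10.06, 10.24 and 9.16 in WT Treg and 10.31, 10.09 and 10.40 in Il2ramut/mut Treg cells. It was 5.08 and 5.96 in WT Tconv and 5.55 and 6.11 in Il2ramut/mut Tconv cells, and 1 of the 2 WT Tconv arrays did not detect it. All 6 Treg arrays stood above all 4 Tconv arrays. The difference was 4.30 ± 0.34 (SE; adjusted p = 3.1e-05) in WT and 4.44 ± 0.34 (adjusted p = 2.02e-05) in Il2ramut/mut mice, or 19.7-fold and 21.7-fold.

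Cxcr5, the receptor that brings follicular helper and follicular regulatory T cells to CXCL13, came next. Signals were 9.74, 9.59 and 9.97 in WT Treg, 8.62, 9.29 and 8.67 in Il2ramut/mut Treg, 6.18 and 6.11 in WT Tconv and 5.10 and 5.83 in Il2ramut/mut Tconv cells. The lower of the Il2ramut/mut Tconv arrays was below background. Treg cells exceeded Tconv cells by 3.62 ± 0.24 in WT (12.3-fold, adjusted p = 9.87e-06) and by 3.39 ± 0.24 in Il2ramut/mut mice (10.5-fold, adjusted p = 1.3e-05). Among other genes of follicular T cells, the inhibitory receptor Pdcd1 and the adaptor Sh2d1a were higher in Treg cells too (by 4.42 and 1.64 in WT), Bcl6, the lineage factor, was not called (0.40, adjusted p = 0.362), and Il21 and Ascl2 were at background on all arrays. Of the 5 genes of that list 2 were called in each genotype, both higher. Over all probe sets 4.37% were called higher in WT and 5.43% in the mutant.

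Cxcr3 and Cxcr6 are receptors of T cells that enter inflamed or peripheral tissue. Cxcr3 read 9.0, 9.15 and 9.33 in WT Treg and 9.52, 9.51 and 9.12 in Il2ramut/mut Treg cells, against 8.08 and 8.39 in WT Tconv and 8.12 and 8.01 in Il2ramut/mut Tconv cells. It was thus detected in every group, naive Tconv cells included, with no overlap between the cell types. The differences were 0.92 ± 0.16 in WT (adjusted p = 0.00494) and 1.32 ± 0.16 in Il2ramut/mut mice (adjusted p = 0.000413). Cxcr6 read 6.64, 6.76 and 6.45 in WT Treg, 6.80, 7.02 and 7.35 in Il2ramut/mut Treg, 5.65 and 5.67 in WT Tconv and 5.38 and 5.81 in Il2ramut/mut Tconv cells. The Tconv signals lay within 0.6 of the background of their arrays. Cxcr6 was higher in Treg cells by 0.95 ± 0.18 in WT (adjusted p = 0.00853) and by 1.46 ± 0.18 in Il2ramut/mut mice (adjusted p = 0.000478). In WT mice the Cxcr3 call was lost without WT Tconv replicate 1 (adjusted p = 0.0545), and the Cxcr6 call without either Tconv array (0.0595 without replicate 1 and 0.0569 without replicate 2). Wherever a Tconv array is left out, here and elsewhere, its group keeps 1 array, which is assumed to vary like the other groups.

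Cxcr4, which retains cells near sources of CXCL12, differed between the cell types in WT mice and was not called in Il2ramut/mut mice. WT Treg arrays read 13.43, 13.40 and 14.72, and WT Tconv arrays read 10.85 and 9.82. The WT difference was 3.51 ± 0.44, or 11.4-fold (adjusted p = 0.000756). Il2ramut/mut Treg arrays read 13.57, 13.48 and 14.09 and Il2ramut/mut Tconv arrays 13.19 and 13.92, so those groups overlapped. The difference there was 0.15 ± 0.44 (95% interval -0.83 to 1.14, adjusted p = 0.87), and its sign turned without Il2ramut/mut Treg replicate 3 (-0.04) and without Il2ramut/mut Tconv replicate 1 (-0.21).

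**Figure D2:**
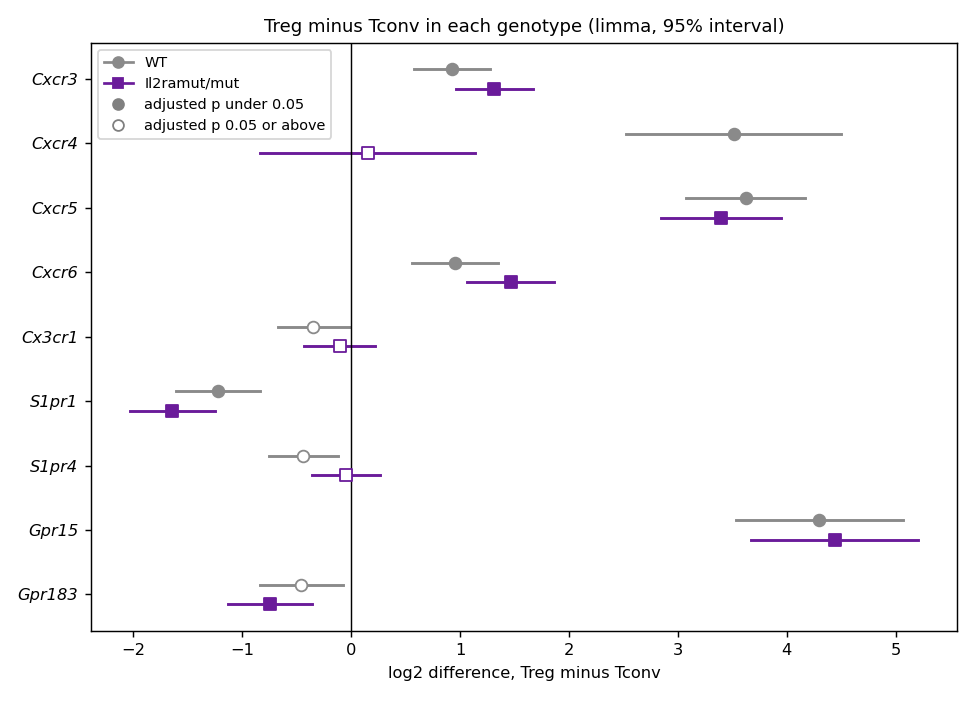
Log2 difference between Treg and Tconv cells (x axis) for each receptor (y axis) in WT (grey circles) and Il2ramut/mut mice (purple squares), with limma's 95% interval as a line and filled symbols for an adjusted p under 0.05. The gap between the genotypes is widest for Cxcr4, which is at 3.51 in WT and 0.15 in Il2ramut/mut mice.

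The exit receptor S1pr1 ran the other way. It read 12.25, 12.08 and 11.93 in WT Treg and 12.20, 11.68 and 11.71 in Il2ramut/mut Treg cells, below 13.43 and 13.19 in WT Tconv and 13.40 and 13.61 in Il2ramut/mut Tconv cells. No Treg array reached the lowest Tconv array. Treg cells were lower by 1.22 ± 0.17 in WT (a 2.33-fold difference, adjusted p = 0.00169) and by 1.64 ± 0.17 in Il2ramut/mut mice (3.12-fold, adjusted p = 0.000186). S1pr1 is lost when T cells are activated and is high on naive T cells, which were the cells gated as Tconv. The part of that gate in the S1pr1 difference cannot be told apart from cell type.

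S1pr4, a lymphocyte S1P receptor whose part in exit is less clear, had smaller differences. It read 9.77, 9.30 and 9.49 in WT Treg, 9.92, 9.66 and 9.72 in Il2ramut/mut Treg, 9.98 and 9.94 in WT Tconv and 9.88 and 9.75 in Il2ramut/mut Tconv cells. The WT difference of -0.44 ± 0.14 missed the threshold (adjusted p = 0.101) and passed it without WT Treg replicate 1 (-0.56, adjusted p = 0.0298), and in Il2ramut/mut mice it was -0.05 ± 0.14 (interval -0.36 to 0.27). Gpr183 read 7.42, 7.76 and 8.00 in WT Treg, 7.51, 7.73 and 7.61 in Il2ramut/mut Treg, 8.23 and 8.14 in WT Tconv and 8.17 and 8.55 in Il2ramut/mut Tconv cells. All 6 Treg arrays lay below all 4 Tconv arrays. The difference was -0.74 ± 0.17 in Il2ramut/mut mice (adjusted p = 0.0202) and -0.46 ± 0.17 in WT mice (adjusted p = 0.163). The Il2ramut/mut call was lost without Treg replicate 1 (adjusted p = 0.0642), Treg replicate 3 (0.0529) or Tconv replicate 2 (0.15).

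Cx3cr1, a receptor of monocytes, NK cells and effector T cells, was dim throughout, from 5.72 to 6.46 over the 10 arrays. Its readings were 5.72, 5.92 and 5.95 in WT Treg, 5.75, 5.86 and 5.90 in Il2ramut/mut Treg, 5.96 and 6.46 in WT Tconv and 5.87 and 6.01 in Il2ramut/mut Tconv cells. Treg cells were at -0.35 ± 0.15 relative to Tconv cells in WT (adjusted p = 0.217) and at -0.10 ± 0.15 in Il2ramut/mut mice (adjusted p = 0.713). The WT value rested on 1 array, the Tconv array at 6.46: without WT Tconv replicate 1 it was -0.60 (adjusted p = 0.0387), and without replicate 2 it was -0.10.

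The second question was whether weaker IL-2 signals through the mutant CD25 changed the receptors within Treg cells. Limma called 0 of the 9 receptors between Il2ramut/mut and WT Treg cells, where 0.373% of all probe sets were called. At an unadjusted p under 0.05 there were 2 of 9, Cxcr5 and Cxcr6, against 9.88% of all probe sets. The methods' t-test called 0 of 9 after adjustment, and 0 of all 65956 probe sets. Cxcr5 was lower on all 3 Il2ramut/mut arrays than on any WT array, with a mean of 8.86 ± 0.37 (SD, n = 3) against 9.77 ± 0.20 (n = 3). That difference of -0.91 ± 0.22 (interval -1.40 to -0.42, or 1.88-fold) had an unadjusted p of 0.00217 and an adjusted p of 0.171, which ranged from 0.0902 to 0.462 over 18 alternatives. Cxcr6 was higher on all 3 mutant arrays, 7.06 ± 0.27 against 6.61 ± 0.16, a difference of 0.44 ± 0.16 (adjusted p = 0.401). How many of all probe sets separated the Treg genotypes in this way was not counted.

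For the other 7 receptors the unadjusted p between the Treg genotypes was at least 0.0781. Gpr15 differed by 0.45 ± 0.31 (interval -0.24 to 1.13), a value set largely by 1 WT array at 9.16, without which it was 0.12. S1pr4 differed by 0.25 ± 0.13, Cxcr3 by 0.23 ± 0.14, S1pr1 by -0.22 ± 0.15, Cxcr4 by -0.13 ± 0.39, Gpr183 by -0.11 ± 0.15 and Cx3cr1 by -0.03 ± 0.13, with adjusted p-values from 0.569 to 0.972. Their intervals reach at most 1.02 away from 0 among these 6, that farthest bound being for Cxcr4. Cxcr4 was spread over 1.32 within WT Treg cells and changed sign, to 0.30, without WT Treg replicate 3.

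**Figure D3:**
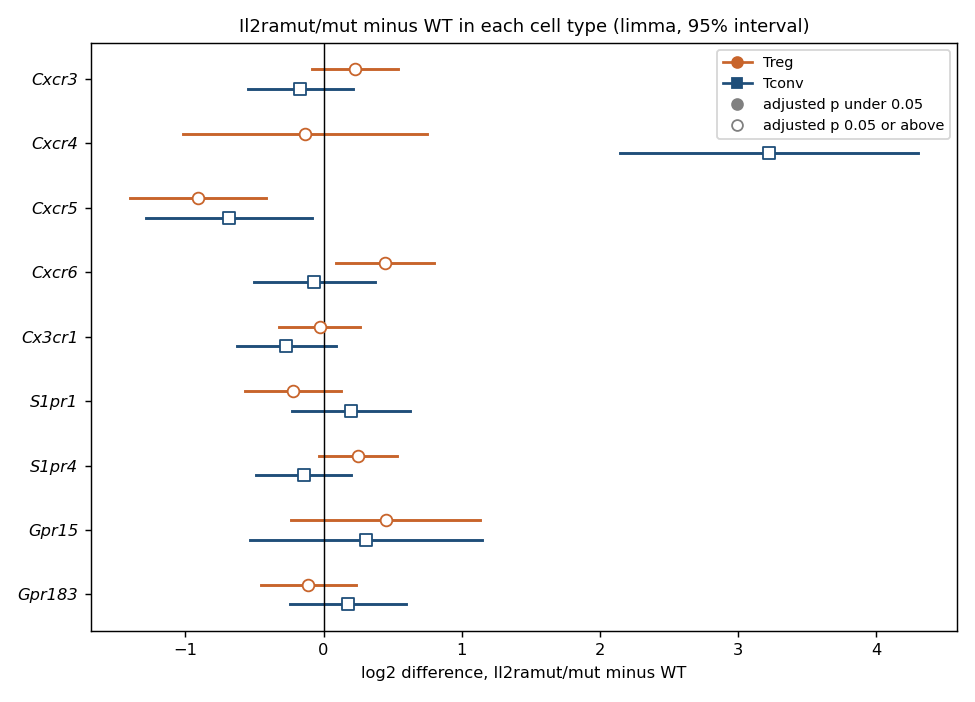
Log2 difference between Il2ramut/mut and WT cells (x axis) for each receptor (y axis) in Treg cells (orange circles) and Tconv cells (blue squares), with limma's 95% interval as a line; open symbols did not pass an adjusted p of 0.05. All symbols are open, with Cxcr4 in Tconv cells at 3.22 and Cxcr5 below 0 in both cell types (-0.91 and -0.68).

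In naive Tconv cells, the Cxcr4 signal of Il2ramut/mut mice was 9.34-fold that of WT mice (13.56 ± 0.52, SD, n = 2, against 10.34 ± 0.73, n = 2), without passing the adjusted threshold. The difference of 3.22 ± 0.48 (interval 2.14 to 4.30) had an unadjusted p of 6.77e-05, the 22nd lowest of 65956, and an adjusted p of 0.195. Limma called 0 of 9 receptors, in a comparison in which it called 2 probe sets (0.00303%). At an unadjusted p under 0.05 there were 2 receptors, Cxcr4 and Cxcr5, against 7.09% of all probe sets. The methods' t-test called 0 receptors after adjustment, and 0 of all 65956 probe sets. Leaving out each array in turn gave Cxcr4 differences from 2.71 (without WT Tconv replicate 2) to 3.74 (without WT Tconv replicate 1). The adjusted p ran from 0.122 to 0.52 over the limma alternatives and was 0.991 with the methods' t-test.

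Whether genotype acted on Cxcr4 differently in the 2 cell types was tested as an interaction. The effect in Treg cells was below that in Tconv cells by 3.36 ± 0.62 (interval -4.75 to -1.96), with an unadjusted p of 0.000354 and an adjusted p of 0.245. For the other 8 receptors the interaction had an unadjusted p of at least 0.0711, and 0 of 9 were called against 0.00152% of all probe sets. The interaction, the comparison of Tconv genotypes and that of cell types in WT mice draw on the same WT Tconv arrays, so the low Cxcr4 signal of those 2 arrays enters each of them.

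Of 14 measured early and stress genes, 0 were called between the Tconv genotypes, against 0.00303% of all probe sets. Those with the largest differences were Dusp1, Jun, Btg2 and Fos. Dusp1, a phosphatase gene induced within minutes of a stimulus, read 9.03 and 7.61 in WT Tconv and 11.15 and 11.06 in mutant Tconv cells (2.79 ± 0.36, adjusted p = 0.149). Jun, a subunit of AP-1, read 6.60 and 5.84 against 7.98 and 8.09 (1.81 ± 0.21, adjusted p = 0.149). Fos, its partner, was at background on both WT Tconv arrays (4.96 and 5.01) and above it on both mutant arrays (5.77 and 5.65). In each of Cxcr4, Dusp1 and Jun, WT Tconv replicate 2 was the lowest of all 10 arrays. Btg2 differed by 0.73 (adjusted p = 0.541). Tsc22d3 and Ier2 were higher in mutant Tconv cells too (0.58 and 0.35), with adjusted p-values of 0.686 and 0.58. Differences were smaller for genes such as Egr1 (0.10), Fosb (0.10), Nr4a1 (0.12) and Zfp36 (-0.06), with adjusted p-values of at least 0.926. Over the whole list the median difference was 0.14, and the mean signal per array ran from 6.48 to 6.80 in WT and from 7.17 to 7.22 in mutant Tconv cells. It was 7.0 to 7.07 in WT Treg and 7.11 to 7.12 in mutant Treg cells. At an unadjusted p under 0.05 there were 6 of the 14, against 7.09% of all probe sets. As arrays were left out, the difference between Tconv genotypes ran from 2.08 to 3.50 for Dusp1 and from 1.43 to 2.20 for Jun. Of the heat shock genes on the list, Dnajb1 differed by 0.14 (adjusted p = 0.91) and Hspa1a was at background on all 10 arrays. The part of sample handling or of cell activation in the Cxcr4 difference was not tested.

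**Figure D4:**
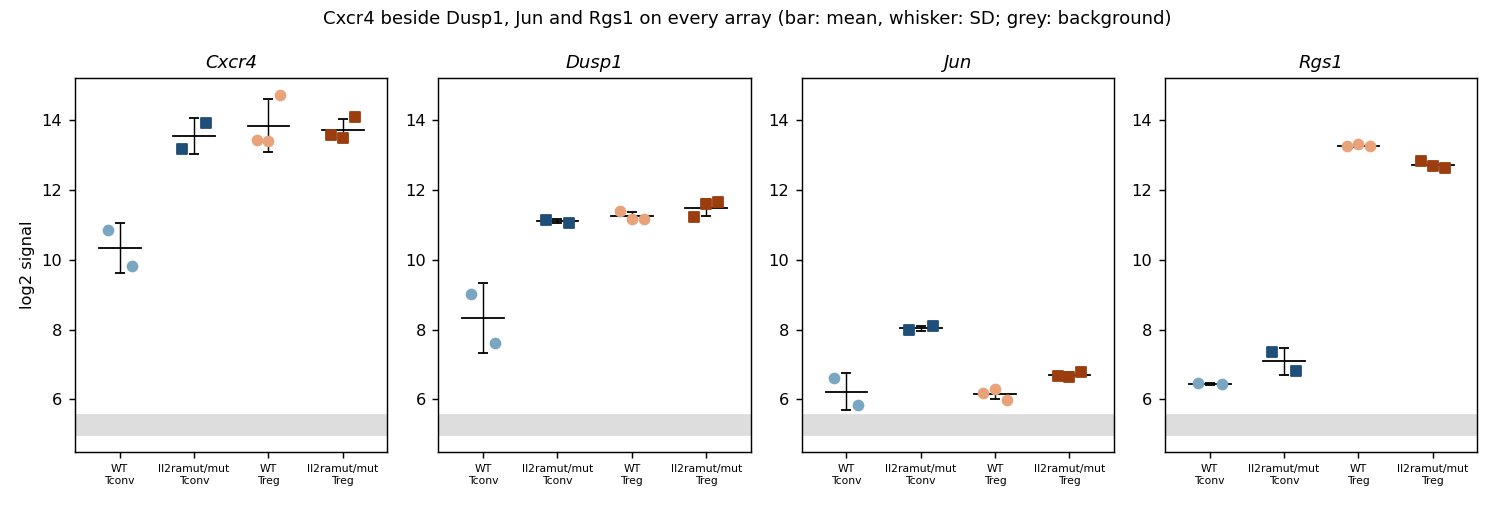
Log2 signal (y axis) of Cxcr4, the early genes Dusp1 and Jun and the signalling brake Rgs1 on every array, by group (x axis), with the mean as a bar, the SD as a whisker and background levels in grey. Cxcr4 and Dusp1 are lowest on both WT Tconv arrays, Jun is highest on both Il2ramut/mut Tconv arrays, and Rgs1 separates Treg (12.64 to 13.31) from Tconv arrays (6.43 to 7.35).

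For the other receptors the differences between Tconv genotypes were smaller. Cxcr5 was at -0.68 ± 0.27 (interval -1.28 to -0.08, adjusted p = 0.666) close to background, and ranged from -1.04 to -0.32 as arrays were left out. The remaining 7 receptors lay between -0.27 (Cx3cr1) and 0.31 (Gpr15), with adjusted p-values from 0.794 to 0.978. For S1pr1 the difference was 0.20 ± 0.19 (interval -0.23 to 0.62), so a change of over 1.54-fold in either direction lay outside the interval.

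The genes that act with these receptors were taken from lists of their ligands, transducers and regulators. Genes of these lists that passed a test are named, and for Cxcl10, Ccrl2, Sgpl1, Grk5, Elmo1, Stk4, Rac1, Rac2, Vav1, Pik3cg, Tbx21, Id3 and Foxo1 a call in at least 1 genotype was lost when 1 array was left out. Ligands were scarcely detected: 6 of 7 chemokine ligands, the S1P exporter Spns2, the S1P kinase Sphk1 and the oxysterol enzymes Ch25h and Cyp7b1 were at background on all 10 arrays, and Cxcl13 (5.15 to 5.63) was detected on 7. Cxcl10, at background throughout, was nonetheless called higher in Treg cells (0.72 and 0.65). Of 5 other CXC and atypical receptors measured, Cxcr2 alone was detected on all arrays (means of 5.69 to 5.83). Ccrl2, detected on 1 array, was called higher in Treg than in Tconv cells of the mutant (0.62). Among S1P genes, S1pr2, a receptor that confines cells to follicles and opposes migration, was higher in Treg cells by 0.61 ± 0.10 in WT (adjusted p = 0.00458) and by 0.63 ± 0.10 in Il2ramut/mut mice (adjusted p = 0.003). Sgpl1, which degrades S1P, was called higher in Treg than in Tconv cells of the mutant (0.48, adjusted p = 0.0476). It was not called with quantile normalization. Ackr3 and Grk2, which no probe set names alone, were not analysed here.

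The transducers below the receptors held the widest difference between cell types among these lists, that of Rgs1. Of 17 measured G proteins, kinases, arrestins and RGS proteins, 7 were higher and 1 lower in Treg than in Tconv cells of WT mice, and 8 higher and 2 lower in mutant mice. Of all probe sets, 4.37% were called higher and 3.52% lower in WT, and 5.43% and 5.91% in the mutant. Rgs1, which shortens G protein signals from chemokine and S1P receptors, read 13.25 to 13.31 in WT Treg and 12.64 to 12.83 in Il2ramut/mut Treg cells. In Tconv cells it read 6.47 and 6.43 in WT and 7.35 and 6.82 in the mutant. Between genotypes Rgs1 was at -0.55 in Treg cells (limma, adjusted p = 0.155) and at 0.64 in Tconv cells (adjusted p = 0.485), called in neither. The differences between cell types were 6.82 ± 0.14 in WT (113-fold, adjusted p = 3.77e-09) and 5.63 ± 0.14 in Il2ramut/mut mice (49.6-fold, adjusted p = 1.05e-08). Gnaq, the alpha subunit of Gq, was higher by 2.80 and 3.05, and Rgs16, a second brake detected on 1 of 2 arrays in each Tconv group, by 2.14 and 2.47. Grk5, a receptor kinase, was higher by 1.06 and 0.80, while Grk6, the kinase that desensitises CXCR4 in lymphocytes, was lower by 1.06 and 1.23 (adjusted p = 0.000113 and 3.23e-05). Rgs3 (0.64 and 0.67) and Rgs10 (0.66 and 0.75), further RGS proteins, were higher in Treg cells of both genotypes. Calls in 1 genotype were Arrb1 (0.60, WT), Gna13 (0.36, mutant), Gnb1 (0.36, mutant, not called with quantile normalization) and Rgs2 (-0.78, mutant), and each was lost when 1 of several arrays was left out. Gnai2, the main inhibitory subunit in T cells, differed by 0.40 and 0.34 (adjusted p = 0.0671 and 0.0997).

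Beside the same shares of all probe sets (4.37% higher and 3.52% lower in WT, 5.43% and 5.91% in the mutant) stood 12 genes for Rac activation and motility. All were detected on 10 arrays, and 1 was higher and 4 lower in WT Treg cells and 2 were higher and 5 lower in the mutant. The lower ones in both were Rasgrp2, which activates Rap1 and integrins (-2.06 and -1.91), Pik3r5, a regulatory subunit of the PI3K that G proteins switch on (-1.60 and -1.91), and Stk4, a kinase needed for T cell exit and survival (-0.49 and -0.57). Rac1 was called higher in both genotypes, and with quantile normalization it was not called in either. Calls in 1 genotype were Elmo1 (-0.48, WT), Rac2 (0.38, mutant), Vav1 (-0.60, mutant) and Pik3cg (-0.43, mutant). Of the lymph node entry receptors measured, Itgal and Itga4, integrin chains, were higher in Treg cells (1.14 and 0.75 in WT), and Ccr7, which brings cells into the node, and the adhesion ligand Icam2 were lower (Ccr7 by 0.93 in WT and 1.58 in the mutant, adjusted p = 0.00631 and 0.000167). Between genotypes, limma called 0 of the 59 measured genes of these lists in either cell type, with 9 in Treg and 3 in Tconv cells at an unadjusted p under 0.05, where 9.88% and 7.09% of all probe sets lay.

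**Figure D5:**
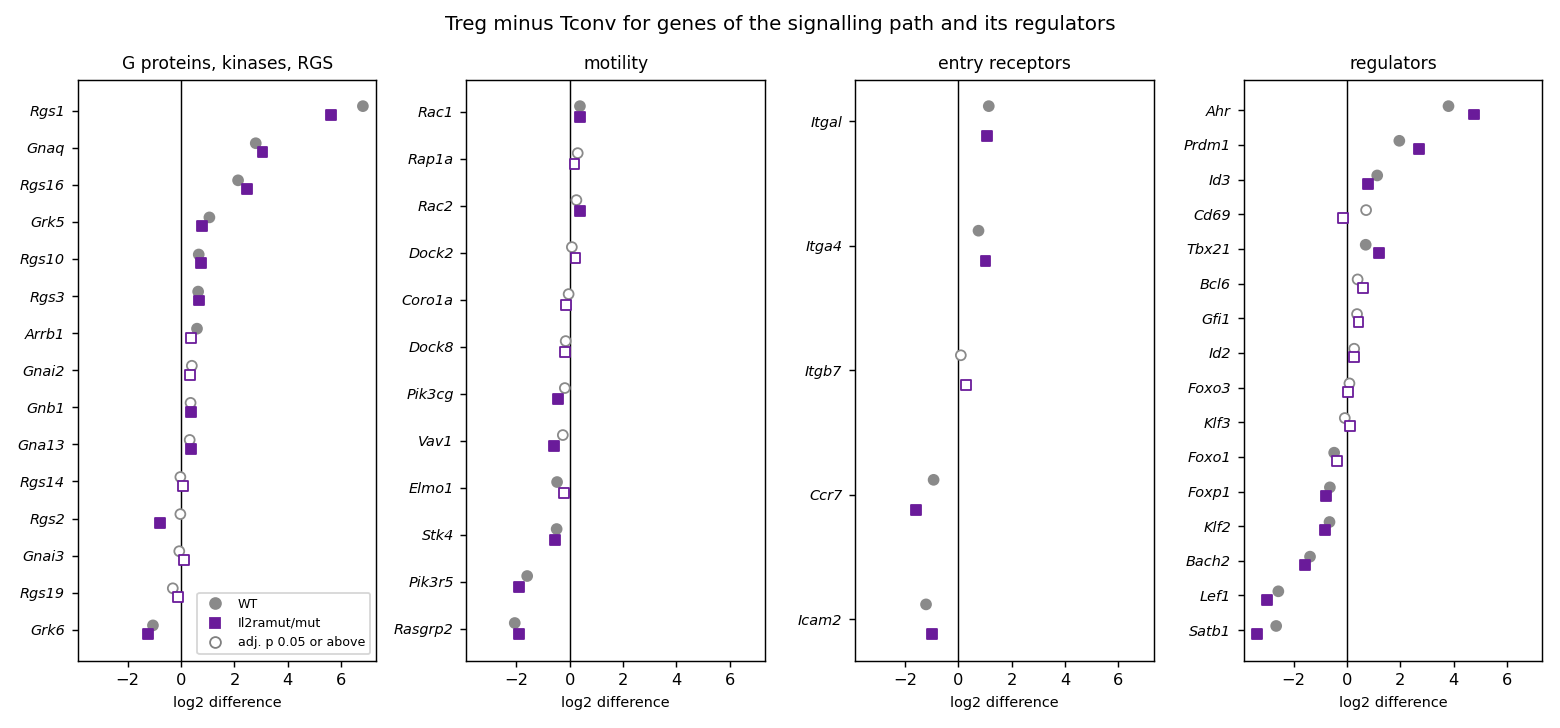
Log2 difference between Treg and Tconv cells (x axis) for the detected genes of the transducer, motility, entry receptor and regulator lists (y axis), in WT (grey circles) and Il2ramut/mut mice (purple squares); open symbols did not pass an adjusted p of 0.05. Rgs1 lies farthest to the right (6.82 and 5.63) and Satb1 farthest to the left (-2.66 and -3.36).

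Of the pathway lists, that of known regulators of the 9 receptors alone held calls between genotypes. Of 17 measured, 2 passed between the Treg genotypes, both higher in the mutant, against 0.373% of all probe sets. Ahr, the aryl hydrocarbon receptor, which drives Gpr15 in T cells, read 9.64, 9.77 and 9.31 in WT Treg and 10.45, 10.53 and 10.90 in Il2ramut/mut Treg cells, a rise of 1.05 ± 0.15 (2.08-fold, adjusted p = 0.0243). Gpr15 itself was at 0.45 ± 0.31 in that comparison. Prdm1, which encodes Blimp-1, read 7.84, 7.61 and 7.75 against 8.67, 8.42 and 8.71 and rose by 0.87 ± 0.11 (1.82-fold, adjusted p = 0.016). Both calls were near the threshold: leaving out any 1 of the 6 Treg arrays ended that of Ahr, and leaving out WT Treg replicate 2 or 3 or Il2ramut/mut Treg replicate 1 or 3 ended that of Prdm1, with adjusted p-values up to 0.0873 and 0.0838 over the limma alternatives. The replicate block ended both calls, with either numbering, and the compared arrays alone ended that of Ahr. The differences themselves stayed between 0.92 and 1.15 for Ahr and between 0.81 and 0.96 for Prdm1. Tbx21, encoding T-bet, an activator of Cxcr3, was at 0.54 (adjusted p = 0.159), and Bcl6, the factor associated with Cxcr5, at -0.05 (adjusted p = 0.97).

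Between the cell types the same list held 4 genes higher and 6 lower in Treg cells of WT mice, and 4 higher and 5 lower in those of mutant mice. Over all probe sets the shares were 4.37% and 3.52% in WT and 5.43% and 5.91% in the mutant. Klf2, the factor that activates S1pr1, read 7.67, 7.51 and 7.47 in WT Treg and 7.40, 7.21 and 7.23 in Il2ramut/mut Treg cells, against 8.40 and 8.03 in WT Tconv and 7.90 and 8.29 in Il2ramut/mut Tconv cells. Like S1pr1 it was lower in Treg cells of both genotypes (-0.66 ± 0.15, adjusted p = 0.0235, and -0.82 ± 0.15, adjusted p = 0.00577). The WT call was lost without WT Treg replicate 2 or 3 or WT Tconv replicate 1 and the mutant call without Il2ramut/mut Tconv replicate 2, with adjusted p-values up to 0.157 and 0.0572. Foxo1, which acts upstream of Klf2, was lower in WT (-0.48, adjusted p = 0.0237) and at -0.38 in the mutant (adjusted p = 0.056). Cd69, whose protein pulls S1PR1 off the surface, was at 0.71 in WT (adjusted p = 0.0608) and -0.17 in Il2ramut/mut mice (adjusted p = 0.657). Satb1 (-2.66 in WT and -3.36 in the mutant), Lef1 (-2.58 and -3.00), Bach2 (-1.39 and -1.58) and Foxp1 (-0.65 and -0.80), factors of naive T cells, were lower in Treg cells, beside the naive gate of the Tconv cells. Tbx21 (0.70 and 1.20) and Id3 (1.13 and 0.77) were higher, as were Ahr (3.80 and 4.78) and Prdm1 (1.96 and 2.71). Id3 was not called in the mutant with quantile normalization.

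Markers of other cells were checked beside these results. Between the cell types 7.89% of all probe sets were called in WT and 11.3% in the mutant. Of 7 B cell genes measured, 2 (Cd79b and Cd22) were higher in Treg arrays, with a mean list signal of 5.22 to 5.35 in Treg and 4.92 to 5.02 in Tconv arrays, while Cd79a, Ms4a1, Ebf1 and Pax5 were at background throughout. The mean of 8 myeloid genes was 5.87 to 5.98 in Treg and 5.73 to 5.84 in Tconv arrays, with a median difference of -0.05 in WT. Cst3 was called higher in Treg cells (1.23 in WT and 1.55 in the mutant) and Itgam lower (-0.68 and -0.50), with Csf1r, Fcer1g and Adgre1 at background on all arrays. Of the 8 genes, 5 were detected on at least 1 array, and Lyz2 (0.475 and 0.51) and Cd14 (-0.06 and -0.20) were not called. Among 4 plasma cell genes measured, Xbp1 alone was called, higher in Treg cells of both genotypes (1.66 and 1.81). The mean of 6 NK and innate lymphoid genes was 5.82 to 6.11 in Treg and 5.35 to 5.65 in Tconv arrays, while the median difference was -0.18 in WT. Nkg7 (3.61 in WT and 3.94 in the mutant) was called higher in Treg cells, as was Klrb1c in the mutant (1.05). Eomes (-0.80 and -0.43) was called lower, as was Tyrobp in WT (-0.60), and Ncr1 and Klre1 were at background on all arrays. The mutant calls of Eomes and Itgam and the WT call of Tyrobp were lost with the compared arrays alone. That of Eomes in the mutant was also lost with quantile normalization. Genes of antigen-experienced T cells (5 of 5, among them Cd44 and Itgae) were higher in Treg cells of both genotypes, and the 3 naive genes measured were lower. Within Treg cells the mean of the 5 antigen-experienced genes was at most 11.29 on WT and at least 11.94 on Il2ramut/mut arrays. Klrg1, an inhibitory receptor of differentiated T cells, was called (2.32 ± 0.20, or 5.0-fold, adjusted p = 0.0041), and Itgae (0.79), S100a4 (0.78), Icos (0.54) and Cd44 (-0.20) were not. Of the naive genes, Ccr7 was at -0.50, Lef1 at -0.43 and Il7r at 0.47, none called. These values stand beside the Cxcr5, Cxcr6, Ahr and Prdm1 differences between Treg genotypes, and their part in them was not tested. The part of the gap in naive and antigen-experienced genes in the receptor differences between Treg and Tconv cells cannot be told apart from cell type, because the sort gated the 2 differently.

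For each receptor, the detected genes whose signals followed it most closely over the 10 arrays were listed by Pearson's r among 11501 probe sets that each name 1 gene. The 10 arrays share a split into 2 cell types, and r is given as a description only. Gpr15 was followed by Smap1 (r = 0.995), Syngr2 and Il18rap (0.994 each), and Cxcr5 by Ifnar2, Abhd4 (0.992 each) and Pmepa1 (0.991). Cxcr3 was followed by Kif5c, Cd79b (0.988 each) and Ncf4 (0.984), and Cxcr6 by Sec14l1 (0.986), Itga4 (0.984) and Il9r (0.981). S1pr1 was followed by Nras (0.99), Mllt10 and Dusp10 (0.989 each), and Gpr183 by Traj36 (0.956), Fam193b and Pde7a (0.951 each). The closest for S1pr4 were Myo1g (0.971), Emp3 (0.918) and Brd9 (0.917), and for Cx3cr1, which was dim, Krt13 (0.961), Crocc (0.948) and Krt40 (0.931). Cxcr4, the only one of the 9 that was low in WT Tconv cells alone, was followed by Pik3r1 (0.949), a PI3K regulatory subunit gene, Camsap1 (0.946) and Rnu6 (0.945).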

How the data were processed

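RNA of sorted lymph node CD4+ T cells was measured on Affymetrix MTA 1.0 Pico mouse arrays, 1 per sample (10 in 4 groups). The authors deposited log2 signals per probe set (highest value 19.92). The log base was taken from that range and from the software, and the submitters' processing notes name Affymetrix Expression Console 1.4.1.46 and Transcriptome Analysis Console 3.1.0.5. For the summarisation and normalization method, and for the build, the sources used here give nothing. Of 72688 probe sets, 6732 controls were left out. The deposited values were fitted with limma 3.58.1 (R 4.3.3), as 4 group means over all 10 arrays, with Benjamini-Hochberg adjustment over 65956 probe sets and a threshold of 0.05. Signals of different probe sets are not comparable as levels, and the number of arrays limits the precision. The fit was tested on simulated data. The methods' t-test is the study's unpaired test on the compared arrays. Its criterion is 1.5-fold and p of at most 0.01. Alternatives were quantile normalization, the compared arrays alone, the replicate number as a block, filters on probe sets, other limma settings, that t-test and each array left out. Receptors are all named, with the 3 genes of most similar pattern for each, list genes that passed a test and genes acting directly on a receptor. Other genes named (Cxcr2, Cxcl13, Gnai2, Bcl6, Btg2, Fosb, Tsc22d3, Dnajb1, Hspa1a and cell markers) were chosen after their values were seen. The receptors and gene lists were chosen with earlier results of these data known.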

Additional observations from a re-analysis of the deposited data

How the results depend on the processing

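Of 792 recomputed receptor differences (45 differences under the alternatives), 756 kept their direction and their side of the threshold, 16 lost and 2 gained a call, and 18 changed sign, none of them a difference that had been called. Many of the 756 were fixed in advance. Filters on probe sets, other limma settings, the compared arrays alone, the t-test and omission of an array outside a comparison leave the difference itself unchanged. A difference that was not called also had no call to lose. Quantile normalization changed no receptor call. The methods' t-test left 1 receptor called between cell types in WT and 1 in Il2ramut/mut mice. Leaving out arrays gave 5 to 7 receptors in WT and 5 to 6 in Il2ramut/mut mice.

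Signs that changed when 1 array was left out belonged to small differences, given here as the range over the arrays left out. Between Treg genotypes Cxcr4 ran from -0.36 to 0.30, Gpr183 from -0.26 to 0.027 and Cx3cr1 from -0.099 to 0.018. Between Tconv genotypes Cxcr6 ran from -0.28 to 0.15, Gpr15 from -0.13 to 0.75 and Gpr183 from -0.016 to 0.37. Between cell types in Il2ramut/mut mice Cxcr4 ran from -0.21 to 0.52 and S1pr4 from -0.12 to 0.018, and in the interaction Cxcr5 ran from -0.59 to 0.13, Cx3cr1 from -0.0057 to 0.49 and Gpr15 from -0.30 to 0.58.

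Over all probe sets, 246 were called between Treg genotypes. This became 132 with the compared arrays alone, 0 with the methods' t-test, 386 by the study's criterion and 38 to 195 as arrays were left out. The 2 called between Tconv genotypes became 1 with the compared arrays alone, 0 with probe sets naming 1 gene, 0 with the methods' t-test, 69 by the study's criterion and 0 to 4 as arrays were left out. Between cell types, 5206 in WT became 647 with the methods' t-test and 2476 by the study's criterion, and 7483 in Il2ramut/mut mice became 4712 with probe sets naming 1 gene (fewer were tested), 992 with the methods' t-test, 3149 by the study's criterion and 4982 to 7455 as arrays were left out. The interaction's 1 became 5 with probe sets naming 1 gene and 1 to 3 as arrays were left out. The causes were not tested.

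Same-numbered arrays deviated together weakly or not at all (correlations of -0.128 to 0.12) and the labels tie no number to a mouse, so whether the numbers pair the samples is not known, and the block was not used in the reported values. With the replicate number as a block, 127 probe sets were called between Treg genotypes and 0 between Tconv genotypes, 4309 and 6527 were called between cell types, 6 receptors were called in each genotype, Ahr and Prdm1 were no longer called between Treg genotypes, and Cxcr4 in Il2ramut/mut mice was at -0.16. With the Tconv numbers crossed, a block chosen after seeing the data, 169 and 0 were called between genotypes, and that Cxcr4 value was again -0.16. Taking the median over a gene's probe sets gave no further value, since each receptor has 1. Receptors at or near background (Cxcr5 and Gpr15 in Tconv cells, Cxcr6 and Cx3cr1) are measured least firmly, and their differences against such groups may understate the change.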
